A study of Mus musculus with 13 samples.

Results

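Glycolysis and the entry of its product into mitochondria were followed through 35 genes: the glucose transporter Slc2a1, the enzymes and isoenzymes of each glycolytic step, the enzymes that set fructose 2,6-bisphosphate, lactate dehydrogenase, the monocarboxylate carriers Slc16a1 and Slc16a3, and the subunits, kinases and phosphatases of pyruvate dehydrogenase. The genes were chosen by function, and a probe was assigned to a gene where its RefSeq accession mapped to the gene's symbol. All 35 were among the 19752 named genes on the array, and all 35 were among the 24459 features tested. The 13 single-colour Agilent arrays carry RNA from white or brown adipose tissue (WAT or BAT), and the mice were C57BL/6J males. The mAP::Fv2E-PERK mice carry a fusion of PERK, the stress kinase of the endoplasmic reticulum, with a domain that the drug AP20187 brings together, so that the drug is meant to switch the kinase on. The 5 groups were untreated wild-type WAT (n = 3), Fv2E-PERK WAT after vehicle (n = 2), Fv2E-PERK WAT after AP20187 (n = 3), Fv2E-PERK BAT after vehicle (n = 2) and Fv2E-PERK BAT after AP20187 (n = 2). AP20187 was injected into the peritoneal cavity at 100 ng per g, and tissue was taken 12 h later. No wild-type mouse received the drug, no wild-type brown fat was profiled here, the labels do not name the white depot, and the cells in which the transgene is active are not given in the sources used here. The treatment text speaks of muscles while every sample is labelled as fat. One further array bears contradictory tissue labels (BAT in its title and WAT as its source) and entered no group. Its Ucp1 level of -4.57 and its Lep level of 4.00 lay within the range of the white arrays, and 2 of the 35 genes lay within the brown vehicle range.

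A level is the log2 processed signal of a gene's brightest probe minus the 75th percentile of its array, and a difference of 1 on this scale is a factor of 2. Probes differ in their response, so levels are compared between arrays for one gene and never between genes. Ucp1, which defines brown adipocytes, lay at 9.87 to 10.63 on the brown arrays and at -7.23 to -3.41 on the white ones. Leptin (Lep), made mainly by white adipocytes, lay at 3.21 to 5.19 on the white arrays and at -0.43 to 1.68 on the brown ones. Eif2ak3, the gene of PERK, lay between 0.89 and 1.40 on all 12 grouped arrays, and whether its probe sees the transgene is not known. Several arrays stood apart from their group. On WAT vehicle array 2 the 7 liver markers averaged 3.58, against -0.78 on vehicle array 1 and -2.29 to 0.38 over all other grouped white arrays. WAT AP20187 array 1 carried 8 of 10 epididymal marker genes well above background (mean level 8.33). AP20187 array 2 carried all 10, at a lower mean of -0.03, against -6.04 to -3.29 on the other white arrays. The adipocyte markers of AP20187 array 1 averaged 6.28 against 7.09 to 8.24 on the other white arrays. Wild-type array 3 also carried some epididymal markers (5 of 10 above background, Crisp1 at 6.68). It had more muscle transcript than the other wild-type arrays (Ckm at -0.03 against -6.90 and -6.76). The brown arrays differed in skeletal muscle markers, as given with the muscle isoenzymes. Groups also differed in signal. Spots well above background made up 49.0% to 51.5% on white AP20187 arrays and 61.2% to 64.0% on white vehicle arrays. The share was 57.9% to 60.6% on wild-type arrays and 46.4% to 49.0% on brown arrays. All white AP20187 arrays shared a slide with vehicle array 2, all brown arrays lay together on a slide of their own, and the wild-type arrays shared a slide with vehicle array 1.

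Glycolysis splits glucose into pyruvate in the cytosol, and pyruvate is either reduced to lactate and exported or carried into mitochondria, where pyruvate dehydrogenase makes acetyl-CoA. Many steps are served by several genes, some active in most tissues (Pgam1, Eno1) and some made mainly in muscle (Pgam2, Eno3, and to a lesser degree Pfkm). In fat the pathway supplies glycerol 3-phosphate for triglyceride storage and acetyl-CoA for fatty acid synthesis, and brown fat in addition burns glucose when it makes heat.

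The sequence upstream of 4 of the genes is shown as examples: Pgam2, the muscle mutase that differed between brown arrays, its general counterpart Pgam1, and Pgk1 and Hk2, which were higher in brown than in white fat. Each run is the 250 bases before the RefSeq start, read 5′ to 3′ along the gene, from build GRCm38.p6. Pgam2 lies at chr11:5803797-5804046 on the minus strand, Pgam1 at chr19:41911621-41911870 on the plus strand, Pgk1 at chrX:106186850-106187099 on the plus strand and Hk2 at chr6:82774455-82774704 on the minus strand. Capitals mark ACGTG, the core of sites for hypoxia-inducible factors, and CAGCTG, an E-box letter sequence read by myogenic factors, each searched on both strands.
Pgam2: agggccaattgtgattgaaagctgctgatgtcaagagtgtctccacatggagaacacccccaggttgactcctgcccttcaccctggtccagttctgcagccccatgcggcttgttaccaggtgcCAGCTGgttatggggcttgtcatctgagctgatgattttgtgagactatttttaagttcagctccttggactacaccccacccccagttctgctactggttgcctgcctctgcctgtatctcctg
Pgam1: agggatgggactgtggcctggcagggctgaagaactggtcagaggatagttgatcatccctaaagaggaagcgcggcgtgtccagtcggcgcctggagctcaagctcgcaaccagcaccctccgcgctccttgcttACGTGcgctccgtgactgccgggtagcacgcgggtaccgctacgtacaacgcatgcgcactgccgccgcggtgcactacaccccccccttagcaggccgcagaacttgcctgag
Pgk1: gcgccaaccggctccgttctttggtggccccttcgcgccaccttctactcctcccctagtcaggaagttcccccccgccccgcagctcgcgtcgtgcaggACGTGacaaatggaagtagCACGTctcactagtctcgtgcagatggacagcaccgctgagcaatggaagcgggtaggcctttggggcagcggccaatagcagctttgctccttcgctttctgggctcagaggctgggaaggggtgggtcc
Hk2: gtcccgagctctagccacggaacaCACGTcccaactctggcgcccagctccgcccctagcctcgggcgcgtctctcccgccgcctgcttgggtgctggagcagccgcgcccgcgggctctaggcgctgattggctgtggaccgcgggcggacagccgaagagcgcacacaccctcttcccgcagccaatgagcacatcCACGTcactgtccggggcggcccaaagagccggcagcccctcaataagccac
Pgk1 and Hk2 each held 2 copies of ACGTG in this window and Pgam1 held 1, while the Pgam2 window held 1 CAGCTG. Ldhb and Gpi1, which were also higher in brown fat, held no ACGTG in their windows. Over the whole set, 34 of the 35 genes had a promoter entry, with 53 entries in all, and 20 entries (37.7%) held ACGTG against 16.6% of all 32841 entries of the same length. CAGCTG was held by 6 of the 53 entries (11.3%) against 13% of all entries. These are matches of letters, and the arrays carry no measurement of binding at them.

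Vehicle-treated brown fat had higher transcript levels than vehicle-treated white fat along most of the pathway. Of the 35 genes, 21 (60%) were higher and 1 was lower in brown fat (limma, Benjamini-Hochberg adjusted p under 0.05 over all features), against 14.3% of all features higher and 9.17% lower, or 23.4% in either direction. At an unadjusted p under 0.05 there were 26 of 35 (74.3%), against 36.5% of all features. The median difference over the 35 genes was 1.83 on the log2 scale, against 0.11 over all features, and 27 of 35 differences were positive. Under the other 3 scalings that median lay between 1.1 and 1.59, with 25 or 26 differences positive and 17 to 20 genes called higher and 1 lower. The split over all features moved more: 3491 were called higher and 2243 lower, but 2682 and 3395 when arrays were scaled to a percentile of the detected probes alone. Hexokinases, most enzymes down to pyruvate kinase, both lactate dehydrogenase subunits and the pyruvate dehydrogenase subunits were among the 21. None of the 4 Pfkfb genes, which set the level of the glycolytic activator fructose 2,6-bisphosphate, passed the test. Pfkfb1 lay at 3.03 and 3.30 in brown vehicle fat and at 4.15 and 4.12 in white. Its limma spread takes in a white AP20187 value of -0.90, outside the compared groups. Brown and white arrays lay on different slides, so that slide and tissue cannot be told apart, and in bulk tissue fewer cells of a type and less RNA per cell cannot be told apart either.

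**Figure D1:**
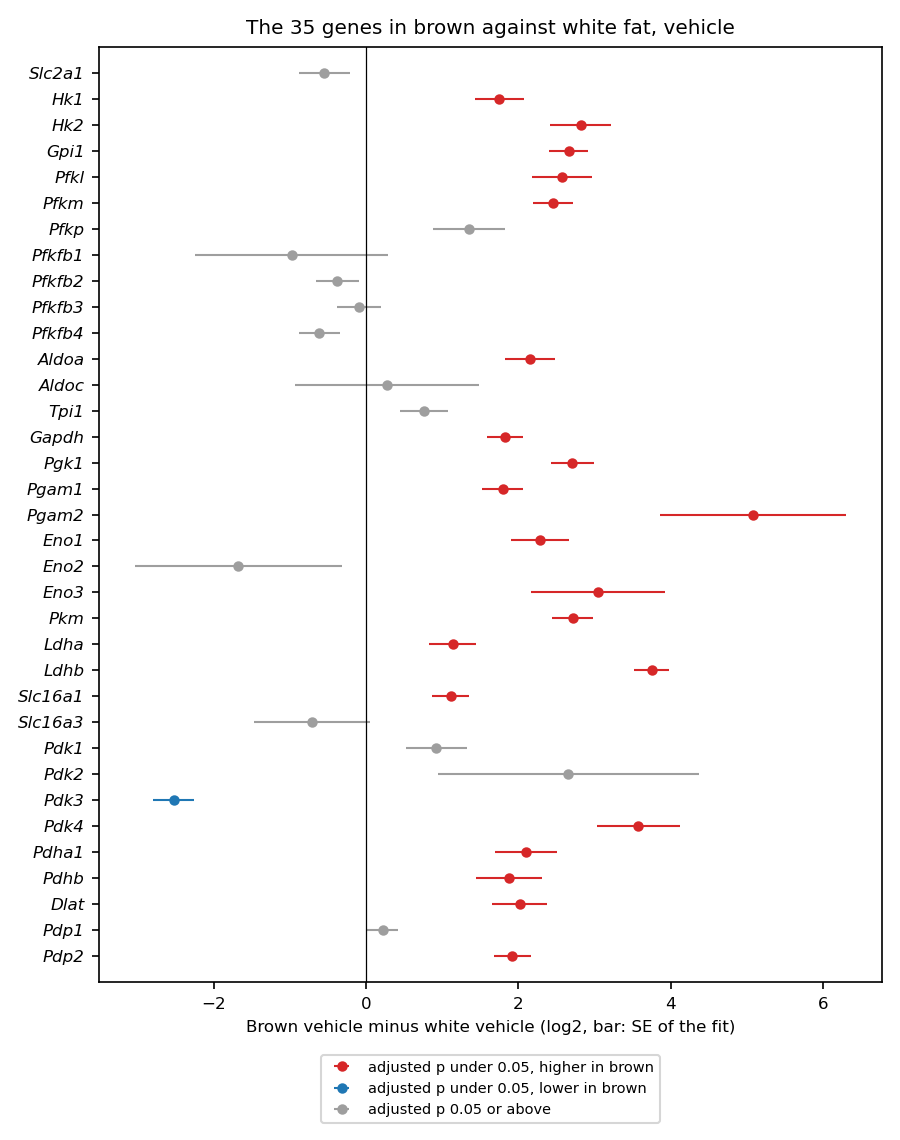
Difference between vehicle-treated brown and white fat (x axis, log2, positive where brown is higher) for each of the 35 genes in pathway order (y axis), n = 2 arrays a group, with bars for the standard error of the limma fit. Most genes lie between 1 and 4 to the right of zero, the Pfkfb genes lie near or left of it, and Pdk3 is the gene called lower in brown fat.

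Slc2a1, the transporter of basal glucose uptake, lay at 1.79, 1.97 and 2.29 in wild-type white fat, 1.68 and 1.73 after vehicle and 2.51, 1.5 and 1.59 after AP20187, and in brown fat at 1.0 and 1.31 after vehicle and 1.70 and 1.70 after AP20187. Its brown arrays lay within or below the white range, and the brown and white vehicle groups differed by -0.55 (SE 0.33) without passing the test. The spot of AP20187 array 2 lay in a weak area of that array (log2 deviation of its surroundings -0.64). Hk2, the insulin-responsive hexokinase that traps glucose, lay at 3.05, 2.97 and 2.84 in wild-type white fat, 2.97 and 2.93 after vehicle and 3.48, 4.51 and 4.05 after AP20187. In brown fat Hk2 lay at 6.31 and 5.24 after vehicle and 4.65 and 5.13 after AP20187. All 4 brown values exceeded all 8 white values, the 3 white AP20187 values exceeded the 5 other white ones, and both brown AP20187 values were below both brown vehicle values. Hk1, the housekeeping hexokinase, was also among the 21 genes higher in brown fat.

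Gpi1, the isomerase that turns glucose 6-phosphate into fructose 6-phosphate, lay at 6.73, 6.68 and 6.62 in wild-type white fat, 6.70 and 6.85 after vehicle and 7.17, 7.78 and 7.37 after AP20187. On the brown arrays it lay at 9.74 and 9.14 after vehicle and 8.70 and 8.88 after AP20187. No brown value overlapped a white one, and vehicle-treated brown fat was 6.34-fold above white (log2 difference 2.66, SE 0.26, adjusted p = 0.00041). Among the 3 phosphofructokinases, which commit sugar to glycolysis, Pfkl (log2 difference 2.58) and Pfkm (2.46) were called higher in brown fat and Pfkp (1.36, adjusted p = 0.0686) was not. Pfkm, the muscle form, was 5.50-fold higher (SE 0.26 on the log2 scale, adjusted p = 0.000626).

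The lower part of the pathway showed the same tissue order. Aldoa, Gapdh, Pgk1, Pgam1, Eno1 and Pkm were all called higher in brown fat, by 1.80 to 2.71 on the log2 scale, while Tpi1, the triosephosphate isomerase, was 0.77 higher without passing the test. Pgk1, whose step makes the first ATP, lay at 5.38, 5.45 and 5.32 in wild-type white fat, 5.35 and 5.41 after vehicle, 5.61, 6.47 and 6.25 after AP20187, and in brown fat at 8.32 and 7.86 after vehicle and 7.65 and 7.80 after AP20187. The 4 brown values stood above all white ones, with a vehicle difference of 6.55-fold (log2 2.71, SE 0.28, adjusted p = 0.000513). Pkm, the pyruvate kinase of fat and muscle, lay at 5.40, 5.24 and 5.26 in wild-type white fat, 5.33 and 5.05 after vehicle, 5.49, 6.24 and 6.17 after AP20187, and in brown fat at 8.05 and 7.76 after vehicle and 7.20 and 7.29 after AP20187. Pkm was 6.56-fold higher in vehicle brown fat (log2 2.71, SE 0.26, adjusted p = 0.00042), again with no overlap of the tissues. The brain-type isoenzymes Aldoc and Eno2 did not pass (log2 differences 0.27, SE 1.21, and -1.68, SE 1.36). Eno2 lay at -2.88 and -2.87 in brown vehicle fat and at -1.15 and -1.25 in white vehicle fat. Its SE takes in a white AP20187 value of -6.30, outside the compared groups.

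Ldhb, the lactate dehydrogenase subunit typical of oxidative tissues, had the smallest p-value of the 35 genes between the tissues. It lay at 4.47, 4.59 and 4.89 in wild-type white fat, 4.40 and 4.49 after vehicle and 5.31, 5.08 and 4.78 after AP20187, and at 8.33 and 8.05 and 7.94 and 8.12 in brown fat after vehicle and AP20187. Brown vehicle fat was 13.5-fold above white (log2 3.75, SE 0.23, adjusted p = 5.83e-05). Ldha, the subunit typical of glycolytic tissues, lay at 9.02, 8.99 and 8.77 in wild-type white fat, 8.88 and 8.93 after vehicle and 8.87, 9.81 and 9.54 after AP20187, and at 10.30 and 9.80 and 9.57 and 9.85 in brown fat. Brown and white AP20187 arrays overlapped for Ldha, and its vehicle difference of 1.14 (log2) was among those called. Of the carriers that export lactate, Slc16a1 was called higher in brown fat (1.11) and Slc16a3, the carrier of glycolytic muscle, was not (-0.71, SE 0.76).

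The enzymes that gate pyruvate into mitochondria divided. Pdha1, Pdhb and Dlat, subunits of the pyruvate dehydrogenase complex, were called higher in brown fat by 1.88 to 2.10 on the log2 scale. Pdk3, one of the kinases that switch the complex off, lay at 0.82, 0.67 and 0.61 in wild-type white fat, 0.63 and 0.38 after vehicle and 1.19, 0.75 and 0.93 after AP20187, but at -2.43 and -1.62 and -2.38 and -2.53 in brown fat. Every brown value was below every white value, and Pdk3 was 5.76-fold lower in vehicle brown fat (log2 -2.53, SE 0.27, adjusted p = 0.000649). Pdk4, the kinase raised by fasting and fatty acids, went the other way: it lay at 2.22, 2.34 and 2.85 in wild-type white fat, 2.96 and 2.97 after vehicle, 1.28, 2.40 and 2.46 after AP20187, 6.21 and 6.88 in vehicle brown fat and 8.21 and 6.71 in AP20187 brown fat. All brown values exceeded all white ones, and the vehicle difference of 3.57 was among those called. The AP20187 array 1 spot of Pdk4 in white fat sat in a weak area (deviation of its surroundings -1.03). Pdk1 (0.92) and Pdk2 (2.66) did not pass. Every brown Pdk2 value (5.03 to 5.55) nonetheless exceeded every white one, the highest of which was 3.62. The limma spread of Pdk2 takes in a white AP20187 value of -2.87 from a weak area, outside the compared groups. Of the phosphatases that switch the complex on, Pdp2 was called higher in brown fat (1.92) and Pdp1 was not (0.22).

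Pgam2 and Eno3, made mainly in muscle, varied widely among the brown arrays, in the order of the muscle markers, and Pfkm followed that order over a narrow range of 0.58. Pgam2, the muscle phosphoglycerate mutase, lay at 0.56 and 4.56 on the brown vehicle arrays 2 and 3 and at 3.31 and 2.43 on the brown AP20187 arrays 1 and 2, against -2.92, -3.50 and -3.84 in wild-type white fat, -1.85 and -3.21 after vehicle and -0.25, -1.52 and -2.84 after AP20187. Eno3, the muscle enolase, lay at 2.45 and 5.90 and at 5.10 and 4.34 on the same brown arrays, against 0.79 to 1.69 on the white ones. In both genes the lowest and the highest brown values belonged to the pair of vehicle arrays, and the AP20187 arrays fell between. The 18 skeletal muscle markers fixed for this check averaged 0.51 on brown vehicle array 2, 5.06 on vehicle array 3, 4.19 on AP20187 array 1 and 3.42 on AP20187 array 2, against -2.95 to -0.84 on the white arrays. Between 15 and 18 of the 18 were well above background on each brown array, and the log2 of their summed signal, relative to the percentile, ran from 6.91 to 10.58 in the vehicle group and from 9.11 to 9.90 in the AP20187 group. Over the 4 brown arrays Pgam2, Eno3, Slc16a3 and Pfkm followed the order of the muscle markers, which is 4 of 35 genes (11.4%) against 4.31% of all features, while Pdk1 and Pdha1 ran in the opposite order (5.71%, against 6.27% of all features). Slc16a3 spanned -1.61 and 0.63 on the vehicle arrays and 0.12 and -0.30 on the AP20187 arrays, and Pfkm spanned 4.53 and 5.11 and 4.77 and 4.57. Against white vehicle fat, Pgam2 was 33.9-fold higher (log2 5.09, SE 1.23, adjusted p = 0.018) and Eno3 8.29-fold higher (log2 3.05, SE 0.88, adjusted p = 0.0368). Without brown vehicle array 3 both calls ended (Pgam2 log2 3.08, adjusted p = 0.068; Eno3 1.32, adjusted p = 0.0626), whereas Pfkm kept its call (2.17, adjusted p = 0.00337). Without brown vehicle array 2 the difference was 7.09 for Pgam2 (adjusted p = 0.0064), 4.78 for Eno3 (adjusted p = 0.00127) and 2.75 for Pfkm (adjusted p = 0.00224). Either omission leaves a single vehicle array, which limma then assumes to vary like the other groups. Over all 26 alternatives the call ended under 13 for Eno3, 4 for Pgam2 and 1 for Pfkm.

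**Figure D2:**
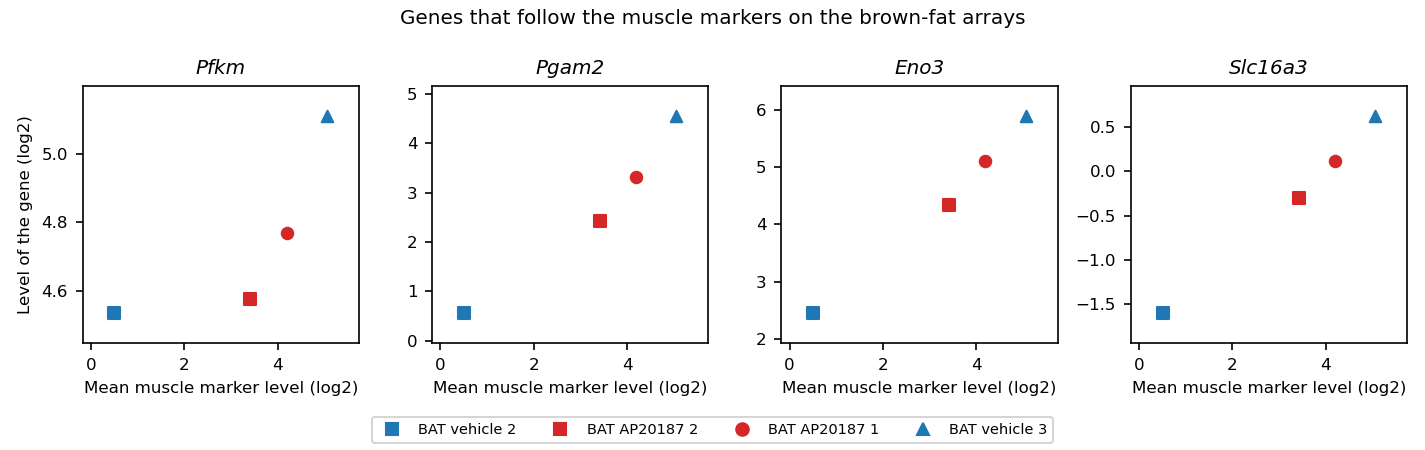
Level of Pfkm, Pgam2, Eno3 and Slc16a3 (y axes, log2, each on its own scale) against the mean level of 18 skeletal muscle markers (x axis, log2) on the 4 brown-fat arrays, one point an array, blue for vehicle and red for AP20187. In each panel the vehicle arrays are the lowest and the highest point, at muscle means of 0.51 and 5.06.

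AP20187 in white fat was accompanied by higher levels along the pathway on some arrays, and no gene passed the test. None of the 35 reached an adjusted p under 0.05 (limma), against 2.24% of all features. At an unadjusted p under 0.05 there were 11 of 35 genes (31.4%), against 22.3% of all features, all 11 with positive differences. The arrays of the groups did not overlap upward in 13 genes (37.1%, against 26.2% of all features) and downward in 4 genes (11.4%, against 12.3%). Of the 35 differences 28 were positive, with a median of 0.61, while the median of all features stood at 0.15. Scaled to a percentile of the detected probes alone, 26 differences were positive and the median was 0.31 against -0.16 over all features. After quantile scaling it was 0.18 against 0.10, so that the excess over all features shrank from 0.47 to 0.08. The 75th percentile that is subtracted ran from 235 to 283 on the AP20187 arrays, against 370 and 403 on the vehicle arrays. Fewer spots were well above background after AP20187, as given with the arrays. The part of these signal differences in the result was not tested. Within the slide that holds vehicle array 2 and all AP20187 arrays, 28 of 35 differences were positive, with a median of 0.58 against 0.14. The only grouped vehicle array of that slide is the one with the most liver transcript.

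**Figure D3:**
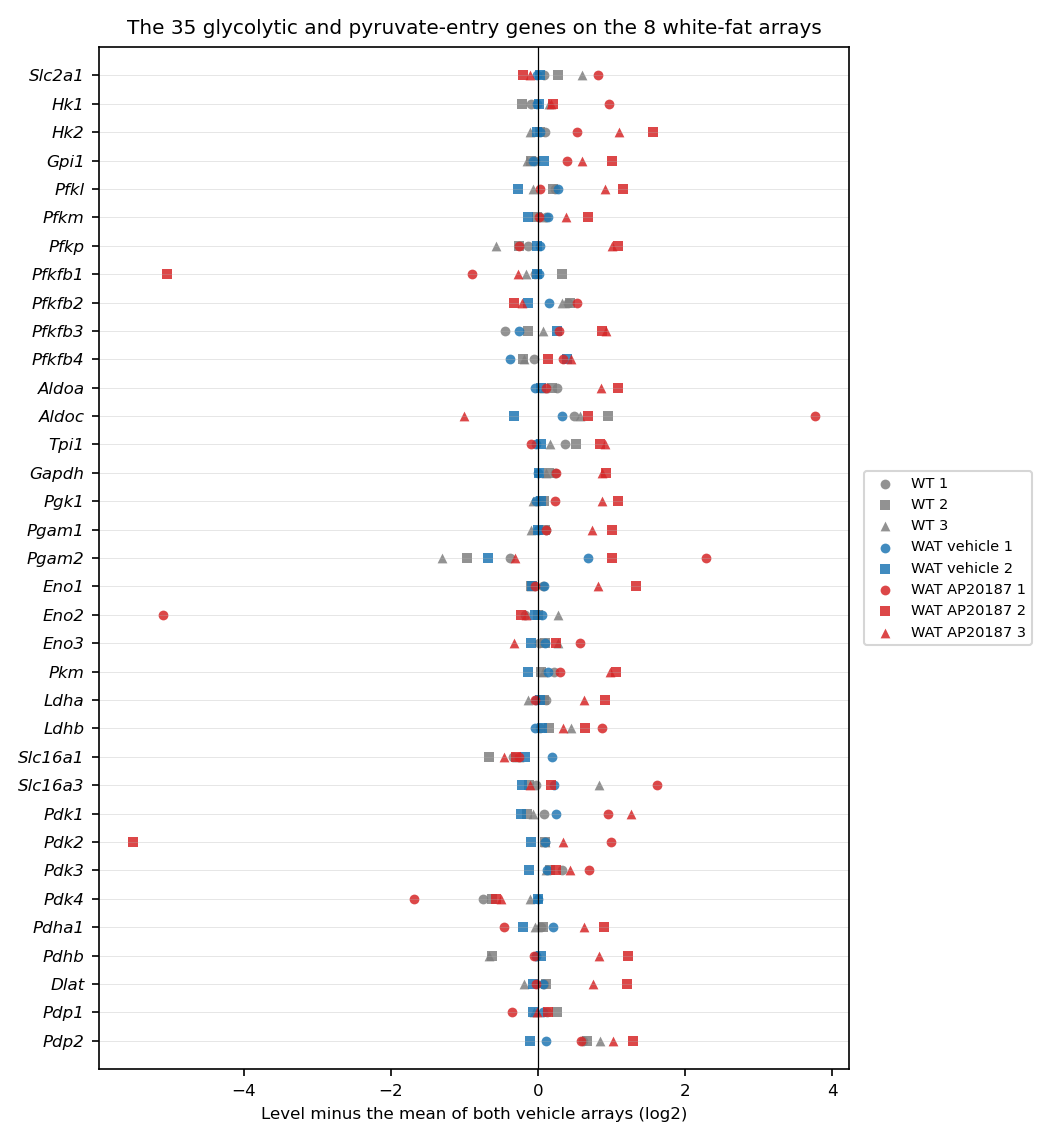
Level of each of the 35 genes (y axis, in pathway order) on the 8 white-fat arrays minus the mean of both vehicle arrays (x axis, log2), grey for wild type, blue for vehicle and red for AP20187, with circle, square and triangle for arrays 1, 2 and 3. From Aldoa to Ldha the red squares and triangles lie mostly between 0.5 and 1.4 while the red circles stay near zero for many genes, and single points of Pfkfb1, Eno2 and Pdk2 lie near -5.

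Pdp2, the phosphatase that reactivates pyruvate dehydrogenase, had the smallest p-value of this comparison. It lay at 1.53, 1.58 and 1.75 in wild-type white fat, 1.02 and 0.81 after vehicle and 1.51, 2.20 and 1.94 after AP20187, a difference of 0.97 (SE 0.22, adjusted p = 0.0579). The AP20187 arrays did not overlap the vehicle arrays but did overlap the wild-type ones, and a second Pdp2 probe gave 0.07. Pkm differed by 0.78 (SE 0.24, adjusted p = 0.114), Gapdh, the glyceraldehyde phosphate dehydrogenase, by 0.68 (SE 0.22, adjusted p = 0.127) and Ldhb by 0.61 (SE 0.21, adjusted p = 0.139). Gapdh lay at 8.96, 8.88 and 8.83 in wild type, 8.72 and 8.74 after vehicle and 8.98, 9.65 and 9.59 after AP20187. Of the 7 Gapdh probes, 6 gave differences of 0.49 to 0.77 and 1 gave -1.0. The 3 Ldha probes gave -0.09 to 0.94.

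The AP20187 arrays were not alike. AP20187 arrays 2 and 3 both lay above both vehicle arrays in 21 of 34 genes with a value on every array (61.8%, against 43.8% of all features), and array 1 was the lowest of the 3 in 21 of 34 (61.8%, against 51.7%). Eno1, the general enolase, read 7.43 and 7.27 after vehicle and 7.30, 8.67 and 8.17 after AP20187: array 1 was at the vehicle level and arrays 2 and 3 were above it. Without AP20187 array 1, 10 genes (28.6%) were called higher and none lower, against 7.65% and 1.58% of all features. They were Pfkfb3, Aldoa, Tpi1, Gapdh, Pgk1, Pgam1, Eno1, Pkm, Dlat and Pdp2, by 0.87 to 1.15 on the log2 scale, with adjusted p-values of 0.0302 to 0.0498 (limma). Without AP20187 array 2 or array 3 in turn, none was called. On the AP20187 arrays the mean of the 8 adipocyte markers lay at 6.28, 8.24 and 7.79 on arrays 1, 2 and 3 against 7.29 on both vehicle arrays, the macrophage markers lay at 0.68, 2.82 and 2.45 against 2.76 to 2.79, and the brown adipocyte markers at 0.12, 1.32 and 0.11 against -0.73 to 0.32. The part of these differences in the result was not tested.

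The large negative values held 1 extreme array each. Pfkfb1, the liver and muscle form of the bifunctional enzyme, lay at 4.15 and 4.12 after vehicle and 3.24, -0.90 and 3.87 after AP20187. Eno2, the neuronal enolase, lay at -1.15 and -1.25 and -6.30, -1.43 and -1.37, and Pdk2, a widely expressed pyruvate dehydrogenase kinase, at 2.73 and 2.54 and 3.62, -2.87 and 2.97. In each gene 1 of the 3 AP20187 arrays lay far below the remaining pair. For Pfkfb1 that pair was below both vehicle arrays as well, for Eno2 it was slightly below, and for Pdk2 it was above. The low Pdk2 spot lay in a weak area whose bright spots deviated by -4.54, and the Pdk1 spot of the same array was left out as an outlier, so that Pdk1 rests on 2 AP20187 values. The fitted differences were -2.07 (SE 1.16) for Pfkfb1, -1.83 (SE 1.24) for Eno2 and -1.39 (SE 1.56) for Pdk2, none of them called. Aldoc had a single high value instead, at 5.0, 1.90 and 0.22 after AP20187 and 1.55 and 0.91 after vehicle. The high value belonged to array 1, on which the epididymal transcripts were highest.

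Against untreated wild-type white fat the levels after AP20187 were again mostly above, but this comparison uses the same AP20187 arrays and is no separate evidence. No gene of the 35 passed (limma), against 8.87% of all features, and 11 (31.4%) had an unadjusted p under 0.05 against 28.6% of all features. There were 28 positive differences with a median of 0.48 against 0.16 over all features, but 20 with a median of 0.10 against -0.21 after scaling to a percentile of the detected probes alone. The smallest p-values were those of Pfkfb3, the inducible isoform of the bifunctional enzyme (0.86, SE 0.23, adjusted p = 0.0521), Gpi1 (0.76, SE 0.21, adjusted p = 0.0546), Hk2 (1.06, SE 0.33, adjusted p = 0.0739) and Pgk1 (0.73, SE 0.23, adjusted p = 0.077). Pfkfb3 lay at 5.39, 5.70 and 5.91 in wild type, 5.59 and 6.10 after vehicle and 6.12, 6.71 and 6.76 after AP20187, so the AP20187 arrays exceeded all others, the nearest by a narrow margin. A second Pfkfb3 probe gave 0.12 against wild type and 0.22 against vehicle. Without AP20187 array 1, 16 genes (45.7%) were called higher and 1, Pfkfb2, lower, against 18.5% and 3.4% of all features. Without wild-type array 3 none was called, with a median of 0.46 against 0.15. In the quantile-scaled data the excess of the median over all features was 0.10, against 0.31 here.

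Vehicle-treated Fv2E-PERK white fat and wild-type white fat differed little. None of the 35 genes passed (limma), against 0.0245% of all features, the median difference was -0.04 against 0.02, and 12 differences were positive. Without wild-type array 3 none was called either, with a median of -0.06 and 13 positive. A single gene, Pdp2 (1 of 35, 2.86%, against 5.02% of all features), had an unadjusted p under 0.05, with -0.70 (SE 0.22, adjusted p = 0.782). Next came Slc16a1 (0.42, SE 0.22), Pfkfb2 (-0.39, SE 0.26) and Tpi1 (-0.35, SE 0.29), each with an adjusted p of 1. The wild-type animals were untreated, so genotype and vehicle injection cannot be told apart.

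In brown fat after AP20187 most of the pathway lay lower than after vehicle, and no gene passed the test. None of the 35 was called (limma), against 0.00818% of all features, and 4 of 35 (11.4%) had an unadjusted p under 0.05 against 7.37% of all features. Groups did not overlap downward in 13 genes (37.1%, against 21.6% of all features) and upward in 2, Slc2a1 and Pfkfb3 (5.71%, against 15.8%). The median difference was -0.28 against -0.04 over all features, with 10 of 35 positive (9 or 10 under the other 3 scalings), and it lay between -0.30 and -0.20 under the other 3 scalings. Slc16a1, the lactate and pyruvate carrier, lay at -1.37 and -1.50 after vehicle and -2.55 and -1.99 after AP20187, a difference of -0.84 (SE 0.24, adjusted p = 0.439). Gpi1 differed by -0.65 (SE 0.26, adjusted p = 0.607), Pkm by -0.66 (SE 0.26, adjusted p = 0.62) and Pfkfb4, the isoform of testis that hypoxia also raises, by -0.63 (SE 0.27, adjusted p = 0.66). For each of the 4 both AP20187 values were below both vehicle values. The muscle isoenzymes gave 0.31 for Pgam2 (SE 1.23), 0.55 for Eno3 (SE 0.88) and -0.15 for Pfkm (SE 0.26), and their sign turned when 1 array was left out, Pgam2 to -1.69 and Eno3 to -1.18 without vehicle array 2, and Pfkm to 0.14 without vehicle array 3. Pdk4 had a positive difference of 0.92 (SE 0.55) with overlapping arrays.

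**Figure D4:**
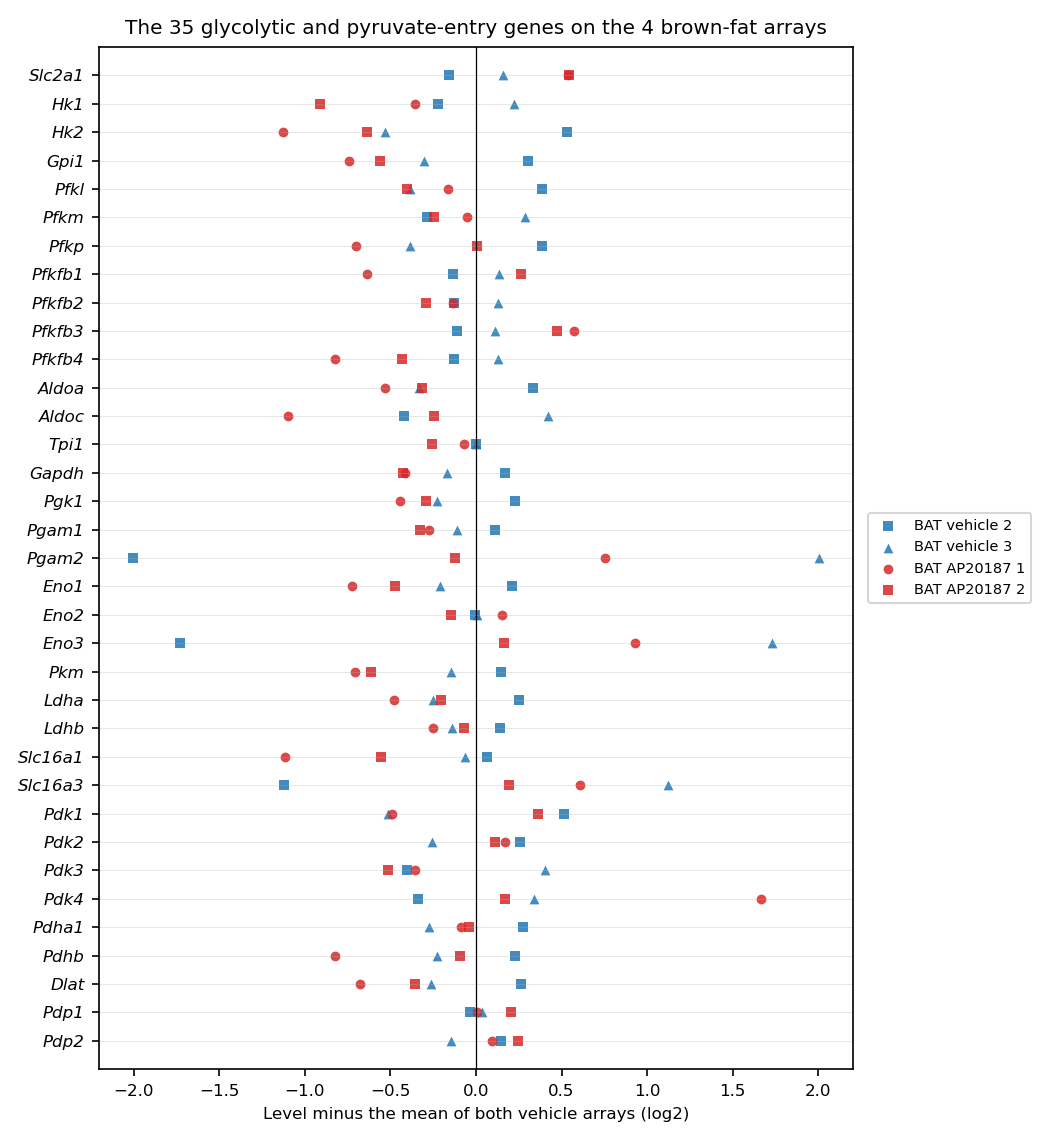
Level of each of the 35 genes (y axis, in pathway order) on the 4 brown-fat arrays minus the mean of both vehicle arrays (x axis, log2), blue for vehicle and red for AP20187. For Hk2, Gpi1, Pkm and Slc16a1 both red points lie left of both blue ones, while Pgam2 and Eno3 spread over more than 3 log2 units with the vehicle arrays at both ends.

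The responses to AP20187 in the tissues had opposite signs for much of the pathway, and the difference of the responses, taken as brown minus white, was negative in 28 of 35 genes (25 to 27 under the other 3 scalings) with a median of -0.84 against -0.16 over all features. No gene of the 35 passed the test of the difference (limma), where 0% of all features did. At an unadjusted p under 0.05 there were 15 of 35 genes (42.9%), against 16.5% of all features. The smallest p-values were those of Pkm (-1.44, SE 0.36, adjusted p = 0.142), Gpi1 (-1.32, SE 0.35, adjusted p = 0.144), Hk2 (-1.95, SE 0.54, adjusted p = 0.149) and Gapdh (-1.1, SE 0.33, adjusted p = 0.159). The muscle isoenzymes gave -0.51 for Pfkm (SE 0.36), -0.68 for Pgam2 (SE 1.66) and 0.38 for Eno3 (SE 1.20). In 7 genes (20%, against 7.04% of all features) the arrays stood apart upward in white and downward in brown fat, and in none the reverse (1.73% of all features). After quantile scaling the median was -0.46 against -0.10.

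**Figure D5:**
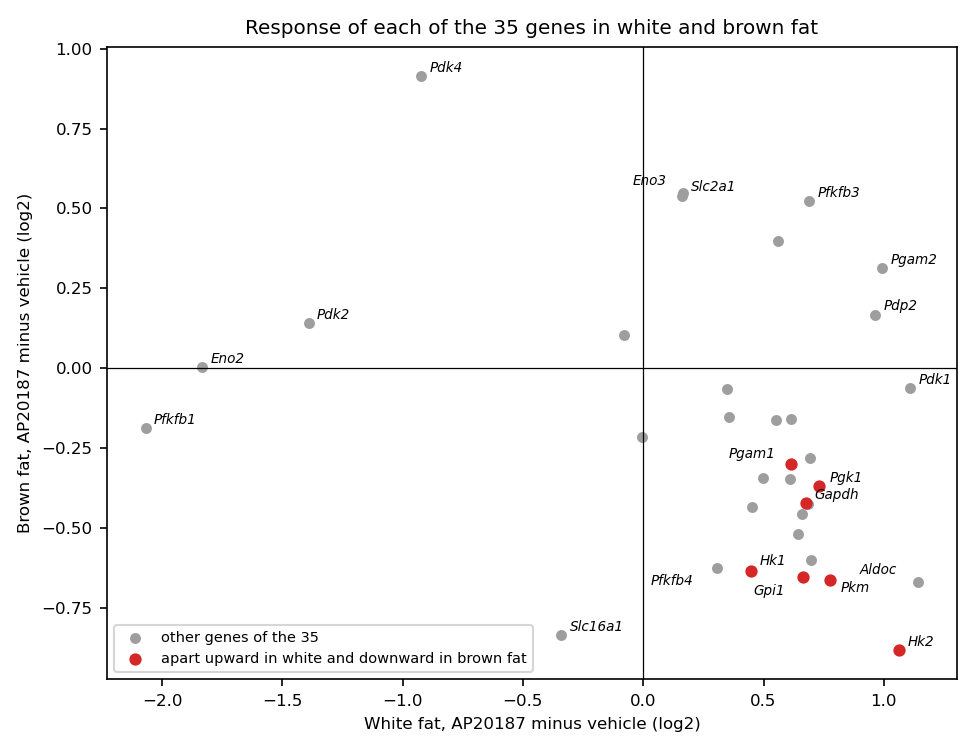
Difference between AP20187 and vehicle in brown fat (y axis, log2) against that in white fat (x axis, log2) for each of the 35 genes, red for the 7 genes whose arrays stood apart upward in white and downward in brown fat. The red points lie in the lower right, with Hk2 at 1.06 and -0.88, and Pdk4 lies in the upper left at -0.92 and 0.92.

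Neighbouring pathways gave the following counts, from lists chosen by function, beside 14.3% of all features called higher and 9.17% lower in brown against white vehicle fat. In brown against white vehicle fat the genes of glycogen turnover were called higher in 10 of 13 (8 after quantile scaling) and lower in none. Among them was Ppp1r3c, a glycogen-targeting phosphatase subunit (3.06, SE 0.40, adjusted p = 0.00122). The skeletal muscle markers also differed between these groups, averaging 0.51 and 5.06 in brown and -2.95 and -2.58 in white vehicle fat. Their part in the glycogen count was not tested. The genes of the glycerol 3-phosphate and NADH shuttles were called higher in 5 of 6 (4 after quantile scaling). They were led by Gpd1 (2.41, SE 0.30, adjusted p = 0.00106) and Gpd2 (3.73, SE 0.47, adjusted p = 0.00111). In the pentose phosphate pathway 3 of 7 were higher, but 1 of 7 after quantile scaling. Of the mitochondrial pyruvate carriers and the rest of the pyruvate dehydrogenase complex, 2 of 7 were higher, Dld (2.13, adjusted p = 0.00582) and Mpc1 (1.46, adjusted p = 0.0455). The Mpc1 call ended under 14 of 26 alternatives and the Dld call under 1. Of 8 glucose-responsive regulators 1 was higher, Ppargc1a, a coactivator of mitochondrial genes (2.05, adjusted p = 0.00521). Of the other glycolytic and gluconeogenic genes 2 of 24 were higher and 4 lower, among the latter the neuronal glucose transporter gene Slc2a3 (-3.30, SE 0.60, adjusted p = 0.00529). Of 12 targets of hypoxia-inducible factor outside glycolysis 1 was higher and 2 were lower, or 3 to 4 lower under the other scalings. The counts among the regulators, the other glycolytic genes and these targets are of the order of the shares over all features, and nothing is read from them. After AP20187 in white fat 1 gene of these lists was called, Mlx, the partner of the glucose-responsive factor ChREBP (1.68, SE 0.30, adjusted p = 0.0459), and its call ended under 21 of 26 alternatives. All 7 pentose phosphate genes had positive differences in white fat (median 0.68) and all 7 negative ones in brown fat (median -0.35), none of them called; under the other scalings 5 or 6 were positive in white fat and 6 or 7 negative in brown fat. The hypoxia-inducible factor targets had medians of -0.09 in white and 0.20 in brown fat, beside 0.15 and -0.04 over all features.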

How the data were processed

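The 13 scanner files hold spot intensity, background-corrected by the authors with Agilent Feature Extraction 10.7.1.1, per the submitters' processing notes and the file headers. The deposited value table holds the same processed intensity, equal within 0.1% for 98.98% to 99.19% of the values of an array, and served as an alternative. It left 14.9% to 32.8% of probes blank on the white arrays and 35.7% to 40.4% on the brown ones. The log2 level is that intensity minus the array's 75th percentile, for the probe of a gene with the highest mean. Of 55681 probes, 32616 entered, those well above background throughout 1 group or more. The 5 groups on 12 arrays were fitted together with limma 3.58.1 (R 4.3.3), with Benjamini-Hochberg adjustment over 24459 features and a threshold of 0.05. The code was tested on simulated data. Whether replicates are separate animals is not in the labels. The p-values then reflect variation among arrays, which may be technical, and the number of arrays limits the precision. Whether replicate numbers pair arrays is not known. Of 19 same-number pairs 2 had a correlation over 0.1, but most pairs join different genotypes or treatments. White and brown arrays of the same treatment gave 0.042 (vehicle 2), 0.024 (AP20187 1) and 0.023 (AP20187 2). Groups this small cannot exclude shared animals. Alternatives covered scaling, background, filter, probe, slide, replicate block, the array with contradictory labels and each array left out. Genes were named where they passed, up to 6 by smallest p, or otherwise as the 4 with the smallest p. The muscle isoenzymes Pfkm, Pgam2 and Eno3, and the levels of Slc2a1, Hk2, Pkm, Ldha, Ldhb and Pdk4, were always given. Other genes were named after their values were seen. The members, lists and rules were chosen with earlier results of these data known. Promoter sequences are from RefSeq, build GRCm38.p6.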

Additional observations from a re-analysis of the deposited data

Results flagged for a closer look

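The arrays of 7 genes stood apart upward after AP20187 in white fat (3 against 2 arrays) and downward in brown fat (2 against 2). The difference of the responses, brown minus white on the log2 scale, was tested by limma over all features, and none reached an adjusted p under 0.05. It was -1.08 for Hk1 (adjusted p = 0.261), -1.95 for Hk2 (adjusted p = 0.149), -1.32 for Gpi1 (adjusted p = 0.144) and -1.10 for Gapdh (adjusted p = 0.159). It was -1.10 for Pgk1 (adjusted p = 0.202), -0.91 for Pgam1 (adjusted p = 0.266) and -1.44 for Pkm (adjusted p = 0.142). The pattern held in 7.04% of all features. Hk1 in white fat lay at 2.37 and 2.40 after vehicle and 3.35, 2.59 and 2.56 on AP20187 arrays 1, 2 and 3. Its white difference of 0.45 was 0.19 without AP20187 array 1, where the other genes of the 7 gave 0.80 to 1.33. A second Hk1 probe gave 0.19 with all arrays.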

How the results depend on the processing

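Replicate numbers are shared between groups, and whether they pair arrays is not known. With the number as a block the count of genes called stayed at 0 in both AP20187 comparisons while Pgam2 in brown fat turned to -0.067. AP20187 against vehicle in white fat gave 1 called gene with no filter (14.8% of all features called), with the filter on all 12 arrays (7.74%) and with slide as a random block (5.66%), and 3 with the contradictory array among the vehicle arrays (7.79%). With each array left out it was 0 to 10, 10 without AP20187 array 1. Against wild type the counts were 2, 6 and 22 for the same 3 settings (18.9%, 19% and 55.1% of all features), 1 with the mean of probes (7.48%), 3 with the contradictory array among the white vehicle arrays (13.4%), and 0 to 17 leaving out arrays, 17 without AP20187 array 1. The random slide block had a consensus correlation of -0.25. The contradictory array had Ucp1 at -4.57 and Lep at 4.00, both in the white range, so placing it among brown arrays mixes unlike profiles and says little about the brown results. Brown against white vehicle fat fell from 22 to 0 called genes when the contradictory array joined the brown vehicle group, and ranged from 17 to 25 leaving out arrays, with 20 under the replicate block. The difference of the responses gave 1 called gene without both AP20187 arrays with epididymal transcripts, where a single white AP20187 array is assumed to vary like the other groups (1.73% of all features called), and 0 to 2 leaving out arrays, 2 without AP20187 array 1. With the contradictory array among the brown vehicle arrays, the members' median response in brown fat relative to all features became 0.23, Gpi1 0.23, Pkm 0.32 and Pfkm 0.64, and the difference of the responses 0.28 for Pfkm and 1.12 for Pgam2, which was 0.62 without both epididymal arrays. Leaving out arrays, the brown response ranged from -1.69 to 2.31 for Pgam2, -1.18 to 2.27 for Eno3 and -0.44 to 0.14 for Pfkm, and the difference of the responses from -1.34 to 2.11 for Eno3 and -2.68 to 1.32 for Pgam2. In the deposited value table Mlx in white fat was -0.00084 against vehicle and -0.15 against wild type. The cause was not tested. Of the values for single genes under these settings, 1327 kept direction and side of the threshold, 189 lost the call, 31 gained it and 15 changed sign. Brown and white arrays share no slide, so a fixed slide block was not possible there. Probes at or near background and spots in weak areas limit Eno2, Pdk1, Pdk2, Pdk4, Pdp1 and Slc2a1, and groups of 2 arrays limit all brown comparisons. The white Pdk4 difference of -0.92 was -0.54 without AP20187 array 1, whose Pdk4 spot lay in a weak area. Leaving out weak areas and both epididymal arrays were alternatives chosen after seeing the data.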
